A study of Homo sapiens with 6 samples.

Results

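Expression of 9 chemokines and the receptor CXCR4 was examined in MDA-MB-231 cells with and without a short hairpin RNA against GPR81. The 10 genes were CCL2, CCL5, CCL20, CXCL1, CXCL2, CXCL3, CXCL8, CXCL16, CXCL12 and CXCR4, taken by symbol from a table of 26255 genes, in which each had 1 row. MDA-MB-231 is a human triple-negative breast cancer line of the basal, mesenchymal kind. Lentivirus carried a non-targeting hairpin (shNT, 3 libraries) or a hairpin against GPR81 (shGPR81, 3 libraries) into the parental cells, so both groups had been infected and selected with puromycin. Whether each line was a pool or 1 clone is not given in the sources used here. GPR81, the lactate receptor, is listed under its symbol HCAR1. The study describes 2 hairpins against GPR81, and which of them was sequenced is not given in the sources used here. Nothing says that the 3 libraries of a group came from separate cultures, so the p-values measure the spread between these libraries, which may be technical. Levels are FPKM, in which fragments are scaled to the transcript's length and to the library's size.

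HCAR1, the gene that the hairpin was directed at, was at 0.968, 1.02 and 1.36 FPKM in shNT cells and at 0.978, 0.891 and 0.396 FPKM in shGPR81 cells. The groups overlapped, and its log2 fold change of -0.57 (limma: SE of 0.31, adjusted p = 0.380) was not past the threshold. The library labelled shGPR81 replicate 3 was the lowest, and without it the log2 fold change was -0.22. The reads were 37, 40 and 52 against 40, 36 and 16, a ratio of 0.677 per library depth with an exact 95% interval of 0.513 to 0.892, which covers counting error and not the spread between libraries. By RT-qPCR and western blot, the study reports significantly reduced GPR81 in the cell lines of both its hairpins. Taking each gene's longest annotated transcript as its length, the steps between low values gave an estimated 11953612 to 12798738 reads a library. By these steps, the deepest library had 1.07 times the depth of the shallowest. The steps also carry any scaling of the libraries within the FPKM, and its settings were not given. Depth here and below is therefore an estimate and not a count of sequenced reads. VIM, a mesenchymal intermediate filament, averaged 3551 FPKM in shNT cells, and the hormone receptor genes ESR1 and PGR and the epithelial cadherin gene CDH1 were listed at 0 in all 6 libraries. Of the other epithelial or receptor markers checked, KRT18 averaged 221 and 194 FPKM in shNT and shGPR81 cells, EPCAM 6.16 and 5.60 FPKM, and ERBB2 11.2 and 12.0 FPKM.

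Chemokines are small secreted proteins that attract cells bearing the matching G protein-coupled receptor, and they are named CC or CXC by the spacing of their first cysteines. CXCL1, CXCL2, CXCL3 and CXCL8 (interleukin-8) carry the ELR motif, bind CXCR2 and recruit neutrophils, and their genes lie together on chromosome 4. CXCL12 is the ligand of CXCR4, a receptor known for steering blood progenitors to marrow and tumour cells to CXCL12-rich tissue such as bone. CCL2 draws monocytes through CCR2, CCL5 acts on receptors that include CCR1 and CCR3, CCL20 on CCR6, and CXCL16 is a membrane-bound chemokine whose receptor is CXCR6.

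RefSeq promoters of GRCh38.p14, windows of 300 bases that mostly lie before a start site, were matched for 7 of the 10 genes in 9 entries. CCL2, CCL5 and CXCL16 had no entry. The 4 ELR genes are shown because their promoters held the same word of 9 letters, GGAATTTCC, a known NF-kB binding sequence, and CXCR4 is shown beside them. Each line is the last 120 bases before the start site, 5′ to 3′ on the gene's strand, with the word in capitals.
CXCL1, chr4:73869273-73869392, plus strand: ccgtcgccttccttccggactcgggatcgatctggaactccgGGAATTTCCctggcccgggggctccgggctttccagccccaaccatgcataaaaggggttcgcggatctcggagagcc
CXCL2, chr4:74099196-74099315, minus strand: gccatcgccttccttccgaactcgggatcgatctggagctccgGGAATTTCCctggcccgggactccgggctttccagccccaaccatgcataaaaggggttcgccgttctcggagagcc
CXCL3, chr4:74038690-74038809, minus strand: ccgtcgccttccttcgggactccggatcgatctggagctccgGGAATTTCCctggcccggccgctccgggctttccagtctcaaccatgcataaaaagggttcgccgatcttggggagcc
CXCL8, chr4:73740449-73740568, plus strand: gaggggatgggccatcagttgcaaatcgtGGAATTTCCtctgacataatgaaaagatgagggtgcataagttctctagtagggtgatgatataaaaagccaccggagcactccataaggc
CXCR4, chr2:136118150-136118269, minus strand: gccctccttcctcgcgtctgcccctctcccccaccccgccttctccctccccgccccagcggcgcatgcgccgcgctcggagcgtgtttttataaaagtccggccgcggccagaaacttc

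The word began 78 bases before the start site in CXCL1 and CXCL3, 77 in CXCL2 and 91 in CXCL8. Searched on both strands, it was in 162 of 35116 promoters of this length (0.461%). The 300-base promoters of CXCL1 and CXCL3 were identical over 82.5% of aligned columns, those of CXCL1 and CXCL2 over 71.9% and those of CXCL2 and CXCL3 over 73.8%. Each was less like the CXCL8 promoter, at 45.2 to 47.9%. TGACTCA, the AP-1 word, was in the CXCL8 promoter alone among the 10 genes' entries, beginning 137 bases before the start, and in 4.95% of all promoters. TATAAA, the TATA word, was in those of CXCL8, CCL20 and 1 of 3 entries of CXCR4, and in 11.5% of all promoters. The words did not overlap each other. They were chosen after the sequences had been seen, and they describe these letters and not a binding site.

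Of the 10 genes, 9 passed the filter of 0.1 FPKM in at least 3 libraries and 1 did not. CXCR4 and CCL2 were called lower in shGPR81 cells (both thresholds passed: an adjusted p of less than 0.05, a fold of more than 1.5), and none of the 10 was called higher. CCL2 passed the filter through the shNT libraries alone, so it had to differ, and with no filter its adjusted p was 0.0674 (limma), which leaves CXCR4 as the 1 call that the filter did not favour. Over all 14349 tested genes, 1.59% were called lower and 0.955% higher. At an unadjusted p under 0.05, 3 of the 9 were lower and 0 were higher (limma), against 9.43% lower and 10.1% higher of all tested genes. The 9 fold changes were below 0 in 7 genes, with a median of -0.16 on the log2 scale against 0.0081 over all tested genes. In 4 genes, CCL2, CXCL8, CXCL16 and CXCR4, every shGPR81 library was below every shNT library, and in none was every shGPR81 library above. Of all tested genes, 12.7% were without overlap downward and 12.9% upward. CCL2 is in each of these counts of lower genes, and the filter fixed its direction and its lack of overlap. The 10 genes were also chosen with earlier results of these data known, so the counts only describe them. At an adjusted p under 0.05 with any fold, the shares of all tested genes were 3.07% lower and 2.06% higher. In bulk samples, fewer cells of a type and less RNA per cell cannot be told apart.

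**Figure D1:**
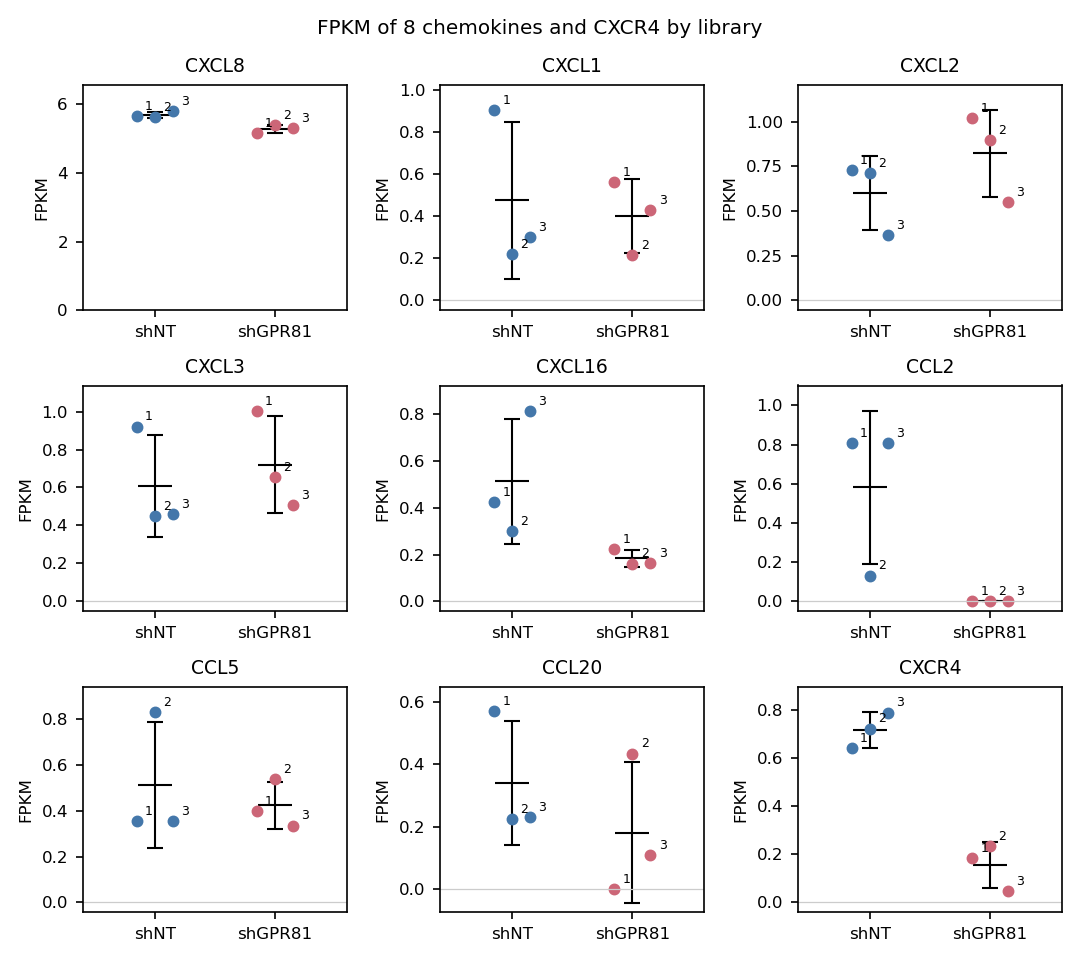
FPKM of 8 chemokines and CXCR4 by gene (panels, each with its own axis that includes 0), with 1 numbered point a library, a bar at the mean of 3 and whiskers of 1 SD, for shNT and shGPR81 cells. CXCR4, CCL2, CXCL16 and, by a small margin, CXCL8 do not overlap between groups, with CCL2 at 0 in all 3 shGPR81 libraries, while CCL5, CCL20, CXCL1, CXCL2 and CXCL3 overlap.

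CXCL8 was the chemokine with the highest level in both groups on the per-length FPKM scale. The other 9 genes averaged under 1 FPKM over the 6 libraries. In shNT cells the order of mean levels was CXCL8, CXCR4, CXCL3, CXCL2, CCL2, CCL5, CXCL16, CXCL1, CCL20 and CXCL12. Only CXCL8 was separated from its neighbour in that order, apart from the last gene, which was at 0, and the ranges of the 8 genes between overlapped from one to the next. In shGPR81 cells CXCR4 was in place 8, against place 2 in shNT cells. CXCL2 and CXCL3 followed CXCL8, then CCL5, CXCL1, CXCL16 and CCL20, whose ranges overlapped in the same way, and CXCR4 was above CCL2 in each library.

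CXCR4 (chromosome 2, 136871919 to 136876747 on GRCh37, minus strand) fell in shGPR81 cells. It was at 0.643, 0.724 and 0.790 FPKM in the shNT libraries and at 0.185, 0.234 and 0.0467 FPKM in the shGPR81 libraries. The highest shGPR81 library was well below the lowest shNT library, and replicate 3 was the lowest of the shGPR81 group. The means were 0.719 ± 0.0739 and 0.155 ± 0.0970 FPKM (SD, n = 3). The log2 fold change was -1.76 (SE 0.33, 95% interval -2.54 to -0.98, adjusted p = 0.0263 from limma), on the log2(FPKM + 0.1) scale. The exact two-sided permutation test gave p = 0.1, the smallest that 3 against 3 libraries allow. These levels came from few reads. The steps in the values gave 13, 15 and 16 reads in shNT cells and 4, 5 and 1 reads in shGPR81 cells. The ratio of shGPR81 to shNT reads per library depth was 0.216, with an exact 95% interval of 0.0969 to 0.435 that covers counting error only. The call was lost when shNT replicate 2 (adjusted p = 0.108), shNT replicate 3 (adjusted p = 0.0797) or shGPR81 replicate 1 (adjusted p = 0.0750) was left out of the limma fit, although the log2 fold change stayed below -1.40. It was also lost with a pseudocount of 1, where the log2 fold change was -0.58, with one of 0.01 (adjusted p = 0.0606) and with a replicate block (adjusted p = 0.0502), so that it held in 7 of 13 alternatives.

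CXCL12, the ligand of CXCR4 (chromosome 10, 44865613 to 44881941, minus strand), was listed at 0 in all 6 libraries and was not tested. ACKR3, the other CXCL12 receptor, was listed above 0 only in shNT replicate 1, at 0.0383 FPKM. MIF, a cytokine that can also bind CXCR4, was at 1130 ± 257 FPKM in shNT and 1187 ± 112 FPKM in shGPR81 cells (log2 fold change 0.09, adjusted p = 0.820 from limma). The receptor was measured in cells whose CXCL12 was listed at 0 and whose MIF was abundant in both groups.

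CCL2 (chromosome 17, 32582293 to 32584227, plus strand) was at 0.807, 0.131 and 0.806 FPKM in shNT cells and at 0 in all 3 shGPR81 libraries. The shNT libraries were far apart, with replicate 2 much below the others, and none overlapped the shGPR81 group. The reads were 6, 1 and 6 against 0, 0 and 0. Set against the limit of 3 reads that a count of 0 allows over the group, CCL2 was 4.56-fold lower in shGPR81 cells per library depth. That value takes the 13 shNT reads as exact and leaves out the spread between libraries, so it is not a lower bound. Its fitted log2 fold change was -2.52 (limma: SE of 0.54, adjusted p = 0.0428), a value that depends on the added 0.1 FPKM, and the exact permutation test gave p = 0.1. CCL2 passed the filter through the shNT libraries alone. That fixed its lack of overlap, and with it this permutation p, the smallest that 3 against 3 libraries allow. The limma p-values of CCL2 in this paragraph carry the same selection. The call held only without shNT replicate 2 (adjusted p = 0.0119) among the 6 fits with a library removed, and the adjusted p was 0.0795 without shNT replicate 1, 0.120 without shNT replicate 3, 0.145 without shGPR81 replicate 1, 0.134 without shGPR81 replicate 2 and 0.120 without shGPR81 replicate 3. CCL7, the nearest ligand gene at a start-to-start distance of 14.95 kb, was listed at 0 in all libraries.

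The other CC chemokines did not pass the test. CCL5 (chromosome 17, 34198495 to 34207797, minus strand) was at 0.355, 0.831 and 0.355 FPKM in shNT cells and at 0.398, 0.537 and 0.335 FPKM in shGPR81 cells. All the shGPR81 values but the lowest lay within the shNT range. The log2 fold change was -0.16 (95% interval -0.93 to 0.61, adjusted p = 0.850 from limma), and the reads were 5, 12 and 5 against 6, 8 and 5, a ratio of 0.820 (exact interval 0.420 to 1.59). Of the 75-base windows in CCL5 transcripts, 8.80% also occurred in transcripts of other genes, so part of its reads could be shared. Its neighbour CCL1 was listed at 0 in all libraries, and CCL16 was above 0 in 1 library, at 0.0556 FPKM. CCL20 (chromosome 2, 228670455 to 228682280, plus strand) was at 0.572, 0.223 and 0.230 FPKM in shNT cells and at 0, 0.435 and 0.108 FPKM in shGPR81 cells. The groups overlapped, with a log2 fold change of -0.89 (95% interval -2.33 to 0.54, adjusted p = 0.505 from limma) that ranged from -1.52 to -0.31 when single libraries were left out. With a wider tolerance of 0.01, the steps gave 5, 2 and 2 reads against 0, 4 and 1.

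CXCL8 (chromosome 4, 74606236 to 74609433, plus strand) was the best measured of the 10 genes. It was at 5.66, 5.62 and 5.80 FPKM in shNT cells and at 5.15, 5.40 and 5.31 FPKM in shGPR81 cells. All 3 shGPR81 libraries were below all 3 shNT libraries, by a small margin. The means were 5.70 ± 0.0951 and 5.29 ± 0.126 FPKM (SD, n = 3), and the log2 fold change was -0.11 (SE 0.07, 95% interval -0.27 to 0.06, adjusted p = 0.502 from limma), which was not past the threshold. The exact permutation test gave p = 0.1. The reads were 117, 119 and 120 against 114, 118 and 116, a ratio of 0.928 (exact interval 0.799 to 1.08).

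CXCL1, CXCL2 and CXCL3, the GRO chemokines, averaged 0.402 to 0.822 FPKM in a group, and none passed the test. CXCL1 (chromosome 4, 74735110 to 74737025, plus strand) was at 0.905, 0.221 and 0.301 FPKM in shNT cells and at 0.563, 0.214 and 0.428 FPKM in shGPR81 cells. Replicate 1 was the highest in both groups, and the log2 fold change was -0.08 (95% interval -1.19 to 1.03, adjusted p = 0.953 from limma). It was 0.42 when shNT replicate 1 was left out and 0.23 when shGPR81 replicate 2 was. CXCL2 (74962757 to 74964913, minus strand) was at 0.728, 0.711 and 0.364 FPKM in shNT cells and at 1.02, 0.896 and 0.551 FPKM in shGPR81 cells. Replicate 3 was the lowest in both groups. The log2 fold change was 0.41 (95% interval -0.31 to 1.12, adjusted p = 0.546 from limma), with reads of 10, 10 and 5 against 15, 13 and 8, and it was 0.13 when shNT replicate 3 was left out. CXCL3 (74902306 to 74904524, minus strand) was at 0.920, 0.449 and 0.460 FPKM in shNT cells and at 1.003, 0.653 and 0.507 FPKM in shGPR81 cells. Here too replicate 1 was the highest in both groups. The log2 fold change was 0.23 (95% interval -0.53 to 0.98, adjusted p = 0.768 from limma), with reads of 12, 6 and 6 against 14, 9 and 7, and it was -0.0066 without shGPR81 replicate 1. Of the 75-base windows in their transcripts, 0.233% of CXCL1, 7.56% of CXCL2 and 4.57% of CXCL3 were shared with another of these 3 genes, and none of CXCL8.

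**Figure D2:**
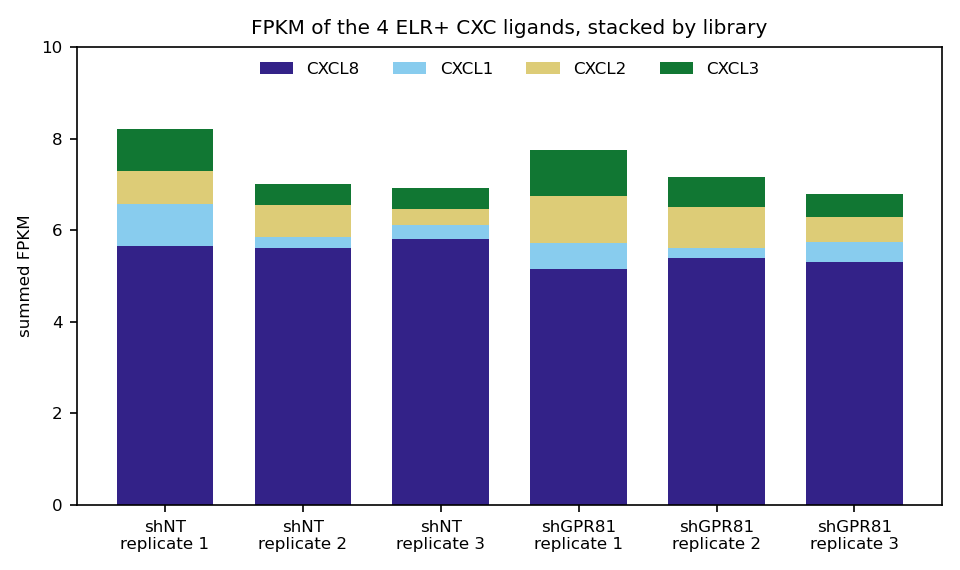
Summed FPKM of CXCL8, CXCL1, CXCL2 and CXCL3 in each of the 6 libraries (stacked bars from 0, shNT and shGPR81). CXCL8 makes up most of every bar, from 66.6% to 83.8%, and the totals of the groups overlap.

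Together the 4 ELR chemokines summed to 8.22, 7.003 and 6.93 FPKM in shNT cells and to 7.74, 7.17 and 6.79 FPKM in shGPR81 cells. The totals of 7.38 ± 0.724 and 7.23 ± 0.477 FPKM (SD, n = 3) overlapped. CXCL8 made up 77.7% ± 7.76 of the sum in shNT and 73.4% ± 6.03 in shGPR81 cells. CXCL2 made up 8.09% ± 2.54 and 11.3% ± 2.75, CXCL3 8.08% ± 2.70 and 9.84% ± 2.82, and CXCL1 6.17% ± 4.23 and 5.52% ± 2.25. For each of these genes the shares overlapped between the groups. Of the nearest ligand genes on chromosome 4, PF4 passed the filter and is described with the other ligands. CXCL6 and CXCL9 were listed at 0 in every library, CXCL5 was above 0 in 2 libraries at no more than 0.0318 FPKM, and PF4V1 was above 0 in 1 library at 0.133 FPKM.

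CXCL16 (chromosome 17, 4636828 to 4643223, minus strand) was at 0.426, 0.3002 and 0.814 FPKM in shNT cells and at 0.224, 0.162 and 0.165 FPKM in shGPR81 cells. The groups did not overlap, but shNT replicate 3 was high and the gap between the groups was small. The means were 0.513 ± 0.268 and 0.183 ± 0.0349 FPKM (SD, n = 3). The log2 fold change was -1.03 (SE 0.33, 95% interval -1.81 to -0.25), and with an adjusted p of 0.141 from limma it was not past the threshold. The exact permutation test gave p = 0.1. ADAM10 and ADAM17, the proteases known to shed CXCL16 from the cell surface, were in the list of decay and shedding genes described further on, and neither was called.

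**Figure D3:**
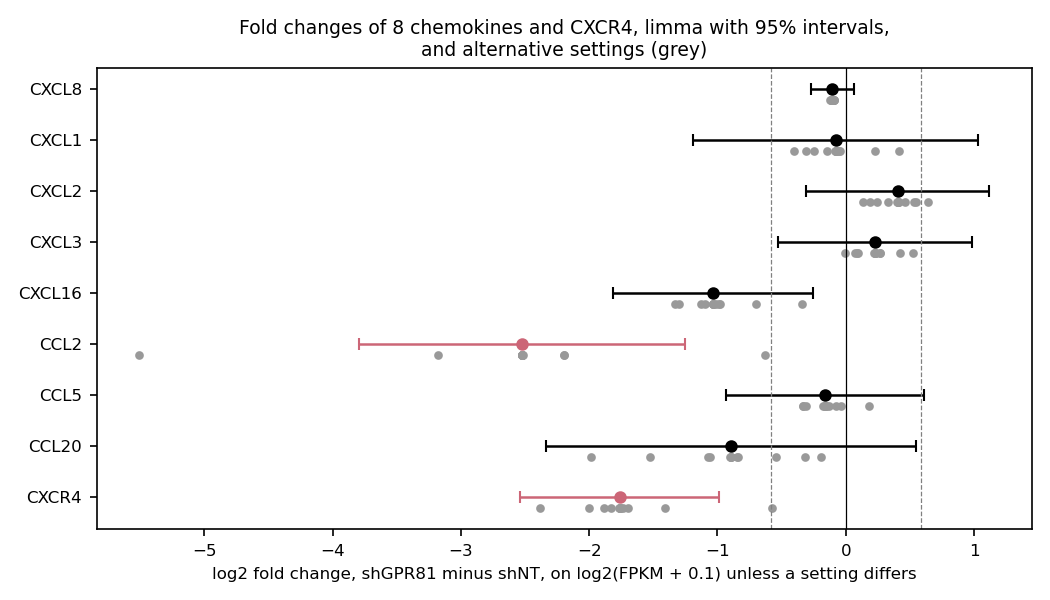
Log2 fold change of shGPR81 minus shNT for 8 chemokines and CXCR4 (points, with 95% intervals from limma; coloured where called lower), the values under the alternative settings (grey points), and the 1.5-fold limits (dashed lines). The intervals of CXCR4, CCL2 and CXCL16 lie below 0, and those of the other 6 genes span it.

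**Figure D4:**
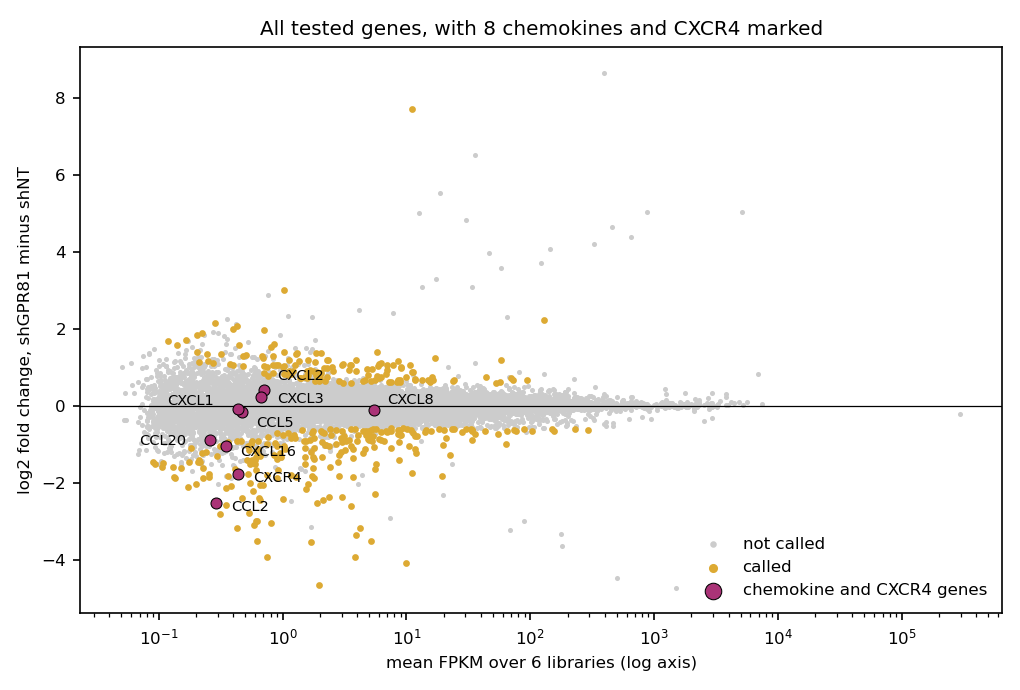
Log2 fold change against mean FPKM over 6 libraries (log axis) for all 14349 tested genes (grey, or orange where called), with 8 chemokines and CXCR4 marked. All but CXCL8 lie at the low end of the expression range.

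Other chemokine ligands were mostly not detected. Of 37 further ligands, 23 were listed at 0 in all libraries, 10 were below the filter and 4 were tested, of which 0 were called (limma). At an unadjusted p under 0.05, 2 were lower and 0 higher (limma), against 9.43% and 10.1% of all tested genes. CCL28, an epithelial chemokine, was at 4.66, 3.84 and 4.01 FPKM in shNT cells and at 3.67, 3.20 and 2.41 FPKM in shGPR81 cells. CCL26 (eotaxin-3) was at 2.46, 5.20 and 2.45 FPKM against 0.765, 2.32 and 1.36 FPKM. In both genes every shGPR81 library was below every shNT library, as in 12.7% of all tested genes, with adjusted p of 0.195 and 0.179 from limma. CCL24 (eotaxin-2) was at 0.951, 0.464 and 0 FPKM against 0.444, 1.35 and 1.35 FPKM (adjusted p = 0.422). PF4, a platelet chemokine and the neighbour of CXCL1 at 111.4 kb, was at 0.112, 0.437 and 0 FPKM against 0.209, 0.423 and 1.06 FPKM (adjusted p = 0.348 from limma).

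The receptors that the measured ligands use were near or at 0 in these cells. CXCR1, a CXCL8 receptor, and CCR2, the CCL2 receptor, were listed at 0 in all libraries. CXCR2 was above 0 only in shNT replicate 3, at 0.0295 FPKM. CCR3 and CCR6 were listed at 0 in 4 libraries each. CCR1 was above 0 in every library, at 0.0555 to 0.137 FPKM, and CXCR6 likewise, at 0.0393 to 0.0831 FPKM, both below the filter. Of 22 further receptors, 10 were at 0 in all libraries and 3 were tested, of which 0 were called (limma). At an unadjusted p under 0.05, 2 were lower and 0 higher (limma), against 9.43% and 10.1% of all tested genes. CCR7, a receptor that guides cells to lymph nodes, was at 0.527, 0.404 and 0.564 FPKM in shNT cells and at 0.281, 0.123 and 0.107 FPKM in shGPR81 cells. CCRL2, an atypical receptor that does not signal through G proteins, was at 11.5, 12.1 and 12.5 FPKM against 9.44, 10.4 and 9.94 FPKM. The groups did not overlap in either gene, as in 12.7% of all tested genes downward. The log2 fold changes were -1.19 (SE 0.30) for CCR7 and -0.27 (SE 0.069) for CCRL2, each with an adjusted p of 0.0717 from limma. CCR10 averaged 0.161 and 0.219 FPKM (adjusted p = 0.649).

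Of 46 genes for partners and signalling of CXCR4, 43 were tested, 1 was called lower and 0 were called higher (6 higher and 7 lower at an unadjusted p under 0.05 in limma, where all tested genes had 10.1% higher and 9.43% lower), with a median log2 fold change of 0.026. The calls over all tested genes were 1.59% lower and 0.955% higher. The called gene was GRK3 (listed as ADRBK2, chromosome 22), a kinase that phosphorylates active CXCR4 and desensitises it. GRK3 was at 0.844, 0.959 and 0.908 FPKM in shNT cells and at 0.352, 0.380 and 0.364 FPKM in shGPR81 cells. The libraries of each group were close together and far from the other group, with a log2 fold change of -1.11 (limma: SE of 0.16, adjusted p = 0.0103). Leaving out shNT replicate 2 gave an adjusted p of 0.0598, and leaving out shGPR81 replicate 1 gave 0.0506. The most abundant genes of the list, beside MIF, were RHOA, a small GTPase of cell movement, at 328 ± 14.1 and 320 ± 5.61 FPKM, and HMGB1, which binds CXCL12, at 231 ± 7.39 and 237 ± 4.19 FPKM, with adjusted p of 0.766 and 0.712 from limma.

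A further 3 genes of that list were lower and 2 higher at an adjusted p under 0.05 with a fold change under the limit, and they are named here after their values were seen. The lower genes were ITCH, a ubiquitin ligase that sorts CXCR4 for degradation, at 19.3 ± 2.25 against 13.9 ± 1.26 FPKM (log2 fold change -0.48), ELMO2 (-0.34) and SDC4 (-0.29). All 3 lie on chromosome 20, where the median log2 fold change of 253 genes averaging at least 5 FPKM was -0.40, and the part of this in their values was not tested. The medians of chromosomes 2, 4 and 17, which hold CXCR4 and the 8 tested chemokines of the 10 genes, were 0.0095, 0.0044 and -0.0097. The higher genes were VAV2 (0.26) and PIK3CG, a PI3-kinase subunit that acts downstream of G protein-coupled receptors, at 2.65 ± 0.193 against 3.85 ± 0.174 FPKM (0.52).

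Of 33 genes of the NF-kB, interleukin-1 and TNF route by which chemokine genes are known to be induced, 32 were tested, 1 was called lower and 0 were called higher (4 lower and 4 higher at an unadjusted p under 0.05, limma), with a median log2 fold change of 0.033. Among all tested genes, 1.59% were called lower and 0.955% higher, and 9.43% and 10.1% were lower and higher at that unadjusted p. The called gene was IL1R1, the signalling receptor for interleukin-1, on chromosome 2. IL1R1 was at 0.897, 0.615 and 0.512 FPKM in shNT cells and at 0.0426, 0.0431 and 0 FPKM in shGPR81 cells. No shGPR81 library came near the shNT range, and the log2 fold change was -2.58 (limma: SE of 0.30, adjusted p = 0.00376). Like CCL2, it passed the filter only through the shNT libraries, so it had to differ once it was tested. BCL3, an IkB-family cofactor, was at 10.3 ± 1.07 and 6.81 ± 0.475 FPKM (SD, n = 3; adjusted p = 0.0168 from limma), a 1.498-fold difference just under the limit.

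The AP-1 genes of the list, FOSL1 and JUN, were higher in shGPR81 cells by less than the fold limit, and the genes for the 5 NF-kB subunits did not pass. FOSL1, an AP-1 subunit and the most abundant gene of the list, was at 169 ± 15.4 and 215 ± 11.1 FPKM (log2 fold change 0.36, adjusted p = 0.0436 from limma), and JUN, another AP-1 subunit, averaged 43.8 and 55.4 FPKM (0.34, adjusted p = 0.0326). The log2 fold changes of NFKB1, NFKB2, RELA, RELB and REL lay between -0.10 and 0.06, and neither they nor the inhibitor gene NFKBIA were called. NFKB1 averaged 14.9 and 15.6 FPKM, RELA 43.4 and 44.9 FPKM, and NFKBIA 13.7 and 13.2 FPKM. TNIP1, which restrains NF-kB signalling, and IRAK1, a kinase of the interleukin-1 receptor, were the next most abundant, with log2 fold changes of 0.02 and -0.01. BCL3, JUN, the NF-kB subunits and NFKBIA are named after their values were seen.

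Of 13 genes for chemokine mRNA decay, shedding and cleavage, 12 were tested, 1 was called lower and 1 higher (2 lower and 3 higher at an unadjusted p under 0.05, limma), with a median log2 fold change of -0.023. The shares of all tested genes were 1.59% and 0.955% for the calls, and 9.43% and 10.1% at that unadjusted p. The 2 lower genes include MMP9, at 0.102, 0.166 and 0.170 FPKM in shNT cells and 0.0318, 0 and 0 FPKM in shGPR81 cells. MMP9, named here after its values were seen, passed the filter only through the shNT libraries. The filter thus fixed its direction, and the count with it only describes the list. MMP1, a collagenase, was at 3.10, 2.50 and 1.92 FPKM in shNT cells and at 1.17, 0.972 and 1.19 FPKM in shGPR81 cells, a log2 fold change of -1.09 (limma: SE of 0.19, adjusted p = 0.0183). The groups did not overlap, and the adjusted p was 0.0880 when shNT replicate 2 was left out, 0.0732 for shGPR81 replicate 1, 0.0819 for shGPR81 replicate 2 and 0.0584 for shGPR81 replicate 3. MMP14, a membrane-bound metalloprotease, was at 38.7, 44.1 and 43.9 FPKM in shNT cells and at 62.1, 62.9 and 65.2 FPKM in shGPR81 cells. It was higher in every shGPR81 library, by a log2 fold change of 0.59 (limma: SE of 0.064, adjusted p = 0.00303), and its fold of 1.501 was just past the limit. It fell under the limit, at a log2 fold change of 0.52, when shNT replicate 1 was left out, and at 0.57 when shGPR81 replicate 3 was. ZFP36L1, which marks short-lived cytokine mRNAs for decay, was at 48.9 ± 1.17 and 62.0 ± 1.94 FPKM (0.34, adjusted p = 0.0085), under the fold limit. The mRNA-binding genes HNRNPD and KHSRP had log2 fold changes of -0.08 and 0.05 and were not called.

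**Figure D5:**
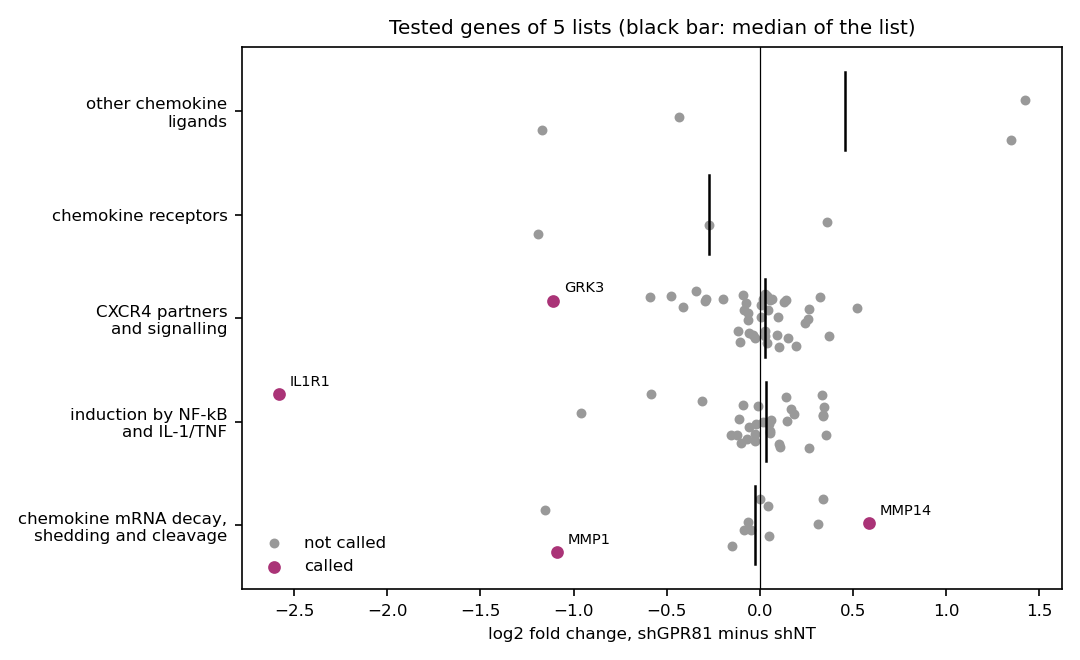
Log2 fold change of shGPR81 minus shNT for the tested genes of 5 lists (1 point a gene, spread vertically for legibility, with called genes coloured and named and a black bar at each list's median). Most genes of the CXCR4, NF-kB and decay lists lie near 0, with GRK3, IL1R1 and MMP1 low and MMP14 high.

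Markers of other cells that make or answer chemokines were checked. Of 12 leukocyte markers, 7 were at 0 in all libraries, among them CD3E and ITGAM. PTPRC (CD45) was at 0 in all shNT libraries and at 0.0286, 0 and 0.0145 FPKM in the shGPR81 libraries. The summed level of the 12 markers was 3.18 to 5.52 FPKM in shNT and 2.62 to 3.48 FPKM in shGPR81 cells. CD14, the most abundant of them, averaged 3.38 ± 1.05 and 1.49 ± 0.312 FPKM (adjusted p = 0.0562 from limma). CD14 was lower in every shGPR81 library, but other leukocyte markers did not follow it. LYZ averaged 0.312 and 0.521 FPKM in shNT and shGPR81 cells and CSF1R 0.924 and 0.990 FPKM, and neither was called. Endothelial markers summed to 0.865 to 1.10 FPKM against 0.844 to 1.23 FPKM, with 1 of 6 at 0 (CDH5), and platelet markers to 0.188 to 0.343 FPKM against 0.0811 to 0.354 FPKM, with 1 of 4 at 0. Fibroblast markers summed to 0.951 to 1.19 FPKM in shNT and 0.503 to 0.734 FPKM in shGPR81 cells, with 4 of 7 at 0. Nearly all of that sum was COL1A1, which averaged 1.06 and 0.640 FPKM and was not called (adjusted p = 0.102 from limma). PDGFRA averaged 0.0075 and 0.0035 FPKM, and COL3A1 went the other way, at 0.0046 and 0.0129 FPKM. The part of the leukocyte and fibroblast sums in the CXCR4 and CCL2 differences was not tested.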

How the data were processed

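RNA-seq of MDA-MB-231 cells gave 1 table of FPKM for 6 libraries (3 shNT, 3 shGPR81). Per the labels, the authors aligned reads with TopHat2 2.0.13 and Bowtie2 2.2.3 and deposited FPKM from Cuffnorm 2.2.1; normalization settings and annotation were not given in the sources used here. The study names hg19 and the processing notes name mm10, while the gene symbols are human. Positions of genes given here were looked up by symbol in a GRCh37 annotation, so they do not show the build used for alignment. Genes that reached 0.1 FPKM in 3 or more libraries (14349) were tested with limma 3.58.1 (R 4.3.3), lmFit and eBayes with trend, on log2(FPKM + 0.1), with Benjamini-Hochberg adjustment over all of them. Calls needed an adjusted p of less than 0.05 and a fold of more than 1.5. The study's own test used read counts, which were not analysed here. Where a gene's FPKM were whole multiples of a step (within 0.0001, relative), reads were recovered, for 5831 of 16639 genes, CXCR4, CCL2, CCL5, CXCL2, CXCL3 and CXCL8 among them. Intervals cover counting error only. The floor for CCL2 covers the counting error of the shGPR81 reads only, with the shNT reads taken as exact. Scripts were tested on simulated data.

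The genes and lists were chosen with earlier results of these data known. Named were the 10 genes, HCAR1, up to 6 called and the 3 most abundant tested genes of each list, and the nearest ligand genes on the chromosome. Outside this rule, known receptors of the chemokines among the 10 genes were named, and so were ADAM10 and ADAM17. The remaining genes are said to be named after their values were seen, or were used to check the cells. Alternatives changed the pseudocount, filter, centring, normalization, trend, replicate block and libraries.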

Additional observations from a re-analysis of the deposited data

How the results depend on the processing

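Of 118 values of the 10 genes' fold changes under alternatives, 99 kept their direction and side of the thresholds. The number called lower among the 10 genes was 2 and fell to 0 with a pseudocount of 1, a filter of 1 FPKM (which left 1 of them tested) or the replicate block, and to 1 with a pseudocount of 0.01, no filter, or no trend. It was 0 to 1 without each library. CXCR4 had a log2 fold change of -0.58 with a pseudocount of 1 (adjusted p = 0.00977, under the fold limit), -2.38 with 0.01 (adjusted p = 0.0606), and -1.998 to -1.41 without each library. CCL2 was at -0.63 with a pseudocount of 1 (adjusted p = 0.0958), -2.52 with no filter (adjusted p = 0.0674) or no trend (adjusted p = 0.0711), and -3.18 to -2.19 without each library. With the replicate block, CXCR4 was at -1.76 (adjusted p = 0.0502) and CCL2 at -2.52 (adjusted p = 0.0541), 197 genes were lower and 115 higher over all genes, and CCL26 became 1 other ligand called lower. The correlations of same-numbered libraries' deviations were 0.12, 0.0223 and 0.00577, and 3 of 6 libraries correlated best with their own number. These values do not settle whether the numbers pair the libraries, so the fits with and without the block are both given. Without each library CCL5 ranged from -0.33 to 0.18 (0.18 without shNT replicate 2), CXCL1 from -0.41 to 0.42 (0.42 without shNT replicate 1, 0.23 without shGPR81 replicate 2), and CXCL3 from -0.0066 (without shGPR81 replicate 1) to 0.52, while CCL20 ranged from -1.52 (without shGPR81 replicate 2) to -0.31 (without shGPR81 replicate 1) and CXCL2 from 0.13 (without shNT replicate 3) to 0.64 (without shGPR81 replicate 3). Over all genes, 142 were called lower and 75 higher with a pseudocount of 1, and 121 to 256 and 65 to 152 without each library. In the CXCR4 partner list the number lower was 0 with a pseudocount of 1 or a filter of 1 FPKM and 0 to 1 without each library. In the NF-kB list it was 2 with a pseudocount of 0.01 or median centring, 0 with a filter of 1 FPKM and 1 to 2 without each library. In the decay list it was 2 with no filter or no trend and 0 to 1 without each library, and the number higher was 0 with a pseudocount of 1, median centring or quantile normalization and 0 to 1 without each library. The causes were not tested. A tolerance of 0.001 for reads gave none for CXCL8, the same reads for the other 5 of the 6 genes, and added CXCL1 (12, 3 and 4 against 8, 3 and 6), and one of 0.01, chosen after seeing the data, added CCL20. With 0 to 16 reads a library behind 7 of the 8 genes whose reads were recovered, all but CXCL8, small differences were not detectable at this depth.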
